A study of Mus musculus with 40 samples.

Results

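Nicotinic acetylcholine receptor subunits and 1 GABA-A receptor subunit were followed in mouse dorsal root ganglia (DRG) over the first 10 days after spared nerve injury. The 7 genes were Chrna3, Chrna6, Chrna7, Chrnb2, Chrnb3, Chrnb4 and Gabra2. They were taken as all probes that the platform's probe table assigns to these symbols, which gave 12 of the 25697 probes on the array and 7 of the 16593 genes with a probe. The rule itself uses no measured value. Of the 7 genes, 6 were measured, and Gabra2 was not above the detection level on any array.

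The ganglia came from adult male C57BL/6J mice of 9-10 weeks, all wild type and all on 1 strain. The injured groups underwent spared nerve injury, which ligates and transects the tibial and the common peroneal nerve and spares the sural nerve. Ganglia were taken 8 h, 16 h, 1, 2, 3, 5, 6, 7 and 8 days after injury (3 arrays at each time) and 4, 9 and 10 days after injury (2 arrays at each time), and from naive mice (7 arrays), for 40 arrays in 13 groups. The naive mice had no operation, so nerve injury cannot be told apart here from anaesthesia and surgery. Whether each array is 1 mouse or pooled ganglia is not given, nor are the ganglion level and side, so p-values measure the spread between arrays, part of which may be technical. The times were also joined into an early phase (8 h to 1 day, 9 arrays), a middle phase (2 to 5 days, 11 arrays) and a late phase (6 to 10 days, 13 arrays), each the mean of its times.

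Nicotinic receptors are cation channels of 5 subunits opened by acetylcholine. Alpha subunits carry the principal face of the acetylcholine site, and most of them need a beta partner, while the alpha7 subunit forms receptors of its own. In sensory ganglia, alpha3 with beta4 gives the ganglionic type of receptor, beta2 is a common partner of other alpha subunits, and alpha6 with the accessory subunit beta3 is found in a set of small sensory neurons. GABA-A receptors belong to the same Cys-loop family but conduct chloride, which leaves mature sensory neurons when the channel opens and depolarises their terminals. Gabra2 encodes the alpha2 subunit, one of those that form benzodiazepine-sensitive receptors.

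RefSeq promoter windows of the mouse genome (250 bases before to 50 bases after the start, GRCm38.p6) were found for 5 of the 7 genes: Chrna3, Chrna7, Chrnb2, Chrnb4 and Gabra2. Chrna6 and Chrnb3 have no entry in that table. The windows of Chrna7, the one of the 5 that passed a test below, and of Chrna3, which passed none, are shown 5′ to 3′ on the gene's own strand, with GC boxes (GGGCGG on either strand) in capitals. Chrna7 lies at chr7:63212477-63212776, minus strand, and Chrna3 at chr9:55026513-55026812, minus strand.
Chrna7: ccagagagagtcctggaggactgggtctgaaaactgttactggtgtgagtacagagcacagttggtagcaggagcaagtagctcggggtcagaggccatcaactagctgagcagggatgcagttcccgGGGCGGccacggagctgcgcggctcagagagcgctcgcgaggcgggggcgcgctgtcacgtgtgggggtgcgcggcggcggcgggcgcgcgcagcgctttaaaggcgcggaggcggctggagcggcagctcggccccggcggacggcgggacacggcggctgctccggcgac
Chrna3: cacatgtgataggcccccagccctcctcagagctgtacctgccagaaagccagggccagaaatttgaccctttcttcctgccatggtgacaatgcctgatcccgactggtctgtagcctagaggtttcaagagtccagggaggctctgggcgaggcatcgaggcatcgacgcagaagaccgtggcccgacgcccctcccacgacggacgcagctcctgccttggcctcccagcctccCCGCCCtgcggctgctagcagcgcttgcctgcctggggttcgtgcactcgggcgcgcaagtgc
Each of these windows held 1 GC box, a letter string that 35.7% of 32851 mouse promoter windows hold. The window of Chrnb2 also held 1 and that of Gabra2 held 2, while none was found in that of Chrnb4. The AP-1 string (TGANTCA) and the cAMP-response string (TGACGTCA), sites for factors that nerve injury is known to induce, were each found in 0 of the 5 windows. All promoter windows held them at 7.81% and 1.79%. The capital letters mark a match of letters and not a known binding site.

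Across all genes, 794 of 10519 (7.55%) differed among the 12 times at an adjusted p under 0.05 (limma's moderated F-test with Benjamini-Hochberg adjustment over all genes, called hereafter). Chrna6 and Chrnb3 were the 2 of 6 measured members called by this test. Array medians of the raw signal lay between 130.2 and 244.5, and the median SD of a gene within a group was 0.18 on the log2 scale. All levels below are log2 normalized signals, and the detection level, below which a probe cannot be told apart from background, was 6.84. Levels of different probes are not compared with one another. The labelled tissue was checked against general sensory neuron markers, whose summed signal was 79871-100387 on injured and 83174.2-92222.2 on naive arrays. Skeletal muscle markers differed widely between arrays, with sums of 4704.11-73839.5 on injured and 7262.09-17401.1 on naive arrays. These muscle sums add linear signals and include Pvalb, which large sensory neurons also express. With the highest naive mean of the 11 markers (12.89), Pvalb weighs heavily in them, so they do not measure muscle RNA alone.

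Chrna6, the gene of the alpha6 subunit, fell in the middle and late phases. In the early phase its levels were 9.05, 9.20 and 9.07 at 8 h, 8.70, 9.13 and 9.03 at 16 h, and 9.06, 8.44 and 8.72 at 1 day. In the middle phase they were 8.71, 8.68 and 8.47 at 2 days, 8.48, 8.65 and 8.79 at 3 days, 8.93 and 8.77 at 4 days, and 8.85, 8.59 and 8.21 at 5 days. Every one of these 11 middle-phase arrays lay below the lowest naive array. In the late phase the levels were 9.10, 8.38 and 8.36 at 6 days, 8.89, 8.60 and 8.58 at 7 days, 8.96, 8.82 and 8.77 at 8 days, 8.62 and 8.80 at 9 days, and 8.80 and 9.08 at 10 days. The 7 naive arrays ran between 9.04 and 9.59, with a median of 9.29. Of the late arrays 11 of 13 were below that range, and 1 array at 6 days and 1 at 10 days were inside it.

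The middle phase averaged 8.65 ± 0.21 (SD, n = 11) and the naive group 9.34 ± 0.18 (SD, n = 7). The fitted difference was -0.68 ± 0.10 (SE, 95% interval -0.89 to -0.46), 1.60-fold lower, with limma adjusted p = 1.55e-05. In the late phase Chrna6 averaged 8.75 ± 0.23 (SD, n = 13), and the difference from naive was -0.58 ± 0.10 (SE), 1.50-fold lower, with limma adjusted p = 8.61e-05. The early phase averaged 8.93 ± 0.25 (SD, n = 9), with a difference of -0.41 ± 0.11 (SE) that did not pass (limma adjusted p = 0.0528), although 9 of 9 arrays were below the naive mean. Among all genes 1.12% were called in the early phase, 0.276% as lower. In the middle phase 10.9% were called and 5.21% were lower, and in the late phase 10.9% were called and 5.12% were lower. Of the 6 measured members, 0 were called in the early phase, 3 in the middle phase (Chrna6, Chrnb3 and Chrna7) and 2 in the late phase (Chrna6 and Chrnb3), all of them lower. The median difference of the 6 members was -0.07 in the early, -0.24 in the middle and -0.14 in the late phase, beside -0.01, -0.01 and -0.02 over all genes.

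**Figure D1:**
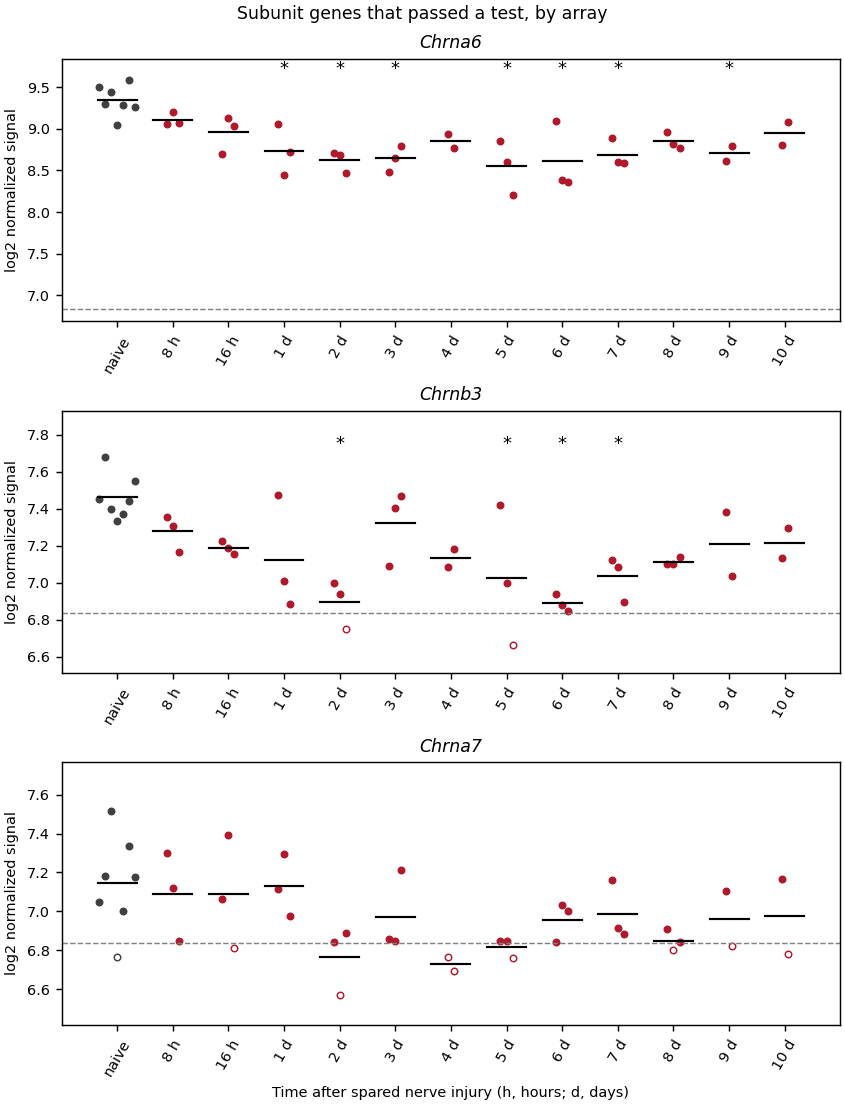
Log2 normalized signal (y) of Chrna6, Chrnb3 and Chrna7 on every array by time after injury (x), with a bar at each group's mean, open points for arrays not above the detection level (dashed line) and a star where a single time passed the test against naive. Chrna6 was called at 7 of 12 times and Chrnb3 at 4, while Chrna7 was called at none of the single times.

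At single times Chrna6 was called at 1, 2, 3, 5, 6, 7 and 9 days. The differences at these times ranged between -0.61 at 1 day and -0.79 at 5 days. At 8 days it was -0.49 with limma adjusted p = 0.0507, at 4 days -0.49 with 0.151, at 10 days -0.40 with 0.343, at 16 h -0.39 with 0.282 and at 8 h -0.24 with 0.940. All 12 means were below the naive mean. The time of the second array at 10 days is in doubt between 9 and 10 days, so the results at both times depend on its label. The order of the means, high to low, was naive, 8 h, 16 h, 10 days, 4 days, 8 days, 1 day, 9 days, 7 days, 3 days, 2 days, 6 days and 5 days. Arrays of neighbouring groups in this order overlapped in every case, so the order itself is not resolved beyond the spread. The members gave 11 calls among their 72 differences at single times, all lower and all in Chrna6 or Chrnb3. The calls over all genes were 0.105% at 8 h, 0.713% at 16 h, 1.67% at 1 day, 3.86% at 2 days, 5.83% at 3 days, 2.46% at 4 days, 6.94% at 5 days, 5.2% at 6 days, 6.04% at 7 days, 4.18% at 8 days, 2.02% at 9 days and 2.79% at 10 days.

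No difference in Chrna6 between the late and the middle phase was detected. The late phase minus the middle phase was 0.09 ± 0.09 (SE, 95% interval -0.09 to 0.28) with limma adjusted p = 0.682, in a comparison where 0.646% of genes were called. The middle minus the early phase was -0.27 ± 0.10 (SE) with limma adjusted p = 0.0807, where 9.34% of genes were called.

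A second Chrna6 probe, also above the detection level on 40 of 40 arrays, gave the same direction. Over all probes, its difference was -0.65 ± 0.12 (SE) in the middle phase (limma adjusted p = 0.000306) and -0.61 ± 0.12 (SE) in the late phase (limma adjusted p = 0.000423). In the early phase it was -0.49 with limma adjusted p = 0.0508. Its levels ran between 8.24 and 8.92 on the middle-phase arrays, between 8.23 and 8.95 on the late-phase arrays, and between 8.75 and 9.56 on the naive arrays, so these ranges overlap.

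In bulk ganglia, fewer cells of a type and less RNA per cell cannot be told apart. Of 8 measured markers of nonpeptidergic nociceptors, small neurons that supply the skin, 2 were called lower in the middle phase (Lpar3 and Scn11a) and 3 in the late phase (the same genes and Mrgprb5). Their summed signal was 19873.1-24430.3 in the middle phase, 19971.2-23961.9 in the late phase and 23482.2-25776 on naive arrays. The sum adds linear signals, so Scn11a (naive mean 14.02) weighs most in it, beside 10.04 for P2rx3 and 9.54 for Mrgprd. Of the 8 only Gfra2 (6.60) had a naive mean below the detection level. The defining markers Mrgprd and P2rx3 were not called in either phase, with middle-phase differences of -0.38 (limma adjusted p = 0.0608) for Mrgprd and 0.04 (0.864) for P2rx3. Mrgprd in the middle phase was called under 3 of 11 alternatives (lowest limma adjusted p = 0.0273, with robust variances) and without naive replicate 4, the second array at 3 or 5 days, the third at 6 days or the first at 7 days. Of 9 general sensory neuron markers, 1 was called lower in the middle phase (Rbfox3) and 2 in the late phase (Rbfox3 and Isl1). Macrophage markers rose, 8 of 11 in the middle phase and 10 of 11 in the late phase, with sums of 5094.44-7356.05 in the middle phase, 6217.47-10205.3 in the late phase and 3417.68-4362.28 on naive arrays. Of 9 large-fibre markers, 3 were called lower in the middle and 4 in the late phase. Of 5 peptidergic markers 2 were called higher in both phases (Gfra3 and Adcyap1). Another, Tac1, was called lower in the middle phase (-0.30, limma adjusted p = 0.0159). The part of these shifts in the Chrna6 result was not tested.

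Chrnb3, the gene of the accessory beta3 subunit, was lower in the same phases, with smaller fitted differences than Chrna6. Its levels were 7.36, 7.31 and 7.17 at 8 h, 7.22, 7.19 and 7.16 at 16 h, and 7.48, 7.01 and 6.89 at 1 day. They were 7.00, 6.94 and 6.75 at 2 days, 7.09, 7.41 and 7.47 at 3 days, 7.09 and 7.18 at 4 days, and 7.42, 7.00 and 6.66 at 5 days. One array at 2 days and 1 at 5 days were not above the detection level, and 8 of the 11 middle-phase arrays were below the lowest naive array. The late levels were 6.94, 6.88 and 6.85 at 6 days, 7.12, 7.08 and 6.90 at 7 days, 7.10, 7.10 and 7.14 at 8 days, 7.38 and 7.04 at 9 days, and 7.13 and 7.30 at 10 days. The naive arrays ran between 7.33 and 7.68 with a median of 7.44, and 12 of the 13 late arrays were below that range.

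The middle phase averaged 7.09 ± 0.26 (SD, n = 11) and the late phase 7.08 ± 0.16 (SD, n = 13), against 7.46 ± 0.12 (SD, n = 7) in naive ganglia. The fitted difference was -0.37 ± 0.09 (SE) in the middle phase with limma adjusted p = 0.00333, and -0.37 ± 0.08 (SE) in the late phase with limma adjusted p = 0.00221, both 1.29-fold lower. The early difference of -0.26 ± 0.09 (SE) was not called (limma adjusted p = 0.181). Single times were called at 2 days (-0.56), 5 days (-0.43), 6 days (-0.57) and 7 days (-0.43). The smallest difference was at 3 days (-0.14, limma adjusted p = 0.594), where 2 of the 3 arrays lay inside the naive range. Neighbours in the order of the 13 group means overlapped in every case here too.

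The Chrnb3 signal is close to background, and the size of its change differed between background corrections. With neqc the difference was -0.13 in the middle and -0.13 in the late phase, both still called. The neqc method takes each array's background from its detection p-values, which on 37 of 40 arrays did not follow the signal. All neqc values here and below carry this limit. A second probe of the gene, above the detection level on 17 of 40 arrays, was not called in a phase over all probes (-0.14, limma adjusted p = 0.208 in the middle phase, and -0.19, 0.0709 in the late phase). It was called by the F-test (limma adjusted p = 0.0215) and at 2 days (-0.39, 0.0144), and at 4 days its mean was above naive (0.16, 0.612), unlike that of the first probe (-0.33, 0.286). The remaining probe was above the level on 0 of 40 arrays, and the platform table lists it under a different transcript accession from that of the other probes. The F-test call of Chrnb3 (limma adjusted p = 0.0334) was lost when any 1 of 11 arrays was left out, with adjusted p up to 0.0745 (without naive replicate 2). Those 11 arrays were naive replicates 1, 2, 3, 6 and 7, replicates 2 and 3 at 2 days, replicate 2 at 3 days, and replicates 1, 2 and 3 at 6 days.

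In the RefSeq annotation, Chrnb3 and Chrna6 are next to each other. The change of the gene pair was compared within each array as Chrna6 minus Chrnb3. In the middle phase this value averaged 1.56 ± 0.19 (SD, n = 11) and on naive arrays 1.88 ± 0.21 (SD, n = 7), so Chrna6 fell further than Chrnb3 by 0.32, and 11 of 11 middle-phase arrays were below the naive mean (exact two-sided permutation test, adjusted over 6 such tests, p = 0.0058). In the late phase the gap was -0.21, with 12 of 13 arrays below the naive mean, and did not pass (exact permutation, adjusted p = 0.0557). The late value is sensitive to the background correction, at -0.32 with neqc and -0.25 in the authors' deposited log2 values, both past the threshold. It also passed without naive replicate 2, 4 or 7, or without the first array at 6 days or at 8 days, with adjusted p of 0.0112-0.0463. Chrnb3 was above the detection level on 9 of 11 middle-phase arrays, so on the rest the gap is only a bound. The part of the lower signal of Chrnb3 in the gap was not tested. Of the genes beside the pair, Tex24 was not called (middle-phase difference -0.05, limma adjusted p = 0.773). Eif4ebp1, a repressor of cap-dependent translation, rose by 0.65 ± 0.10 (SE) in the middle phase (limma adjusted p = 9.81e-06) and 0.72 in the late phase (8.11e-07). Poteg and Unc5d, on the other side, were not above the detection level on enough arrays to be tested.

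Chrna7, the gene of the homomeric alpha7 subunit, was lower in the middle phase. Its early levels were 7.30, 7.12 and 6.85 at 8 h, 7.07, 7.39 and 6.81 at 16 h, and 7.11, 7.30 and 6.98 at 1 day. Its middle levels were 6.84, 6.57 and 6.89 at 2 days, 6.86, 6.85 and 7.21 at 3 days, 6.77 and 6.69 at 4 days, and 6.85, 6.85 and 6.76 at 5 days. These sit close to the detection level, and 4 of the 11 middle-phase arrays, both arrays at 4 days among them, were not above it. Its late levels ran between 6.78 and 7.17 with a median of 6.91, and the naive levels between 6.76 and 7.52 with a median of 7.18. The ranges of the phases and of the naive group overlapped.

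The middle phase averaged 6.83 ± 0.16 (SD, n = 11) and the naive group 7.15 ± 0.24 (SD, n = 7). The difference was -0.32 ± 0.09 (SE, limma adjusted p = 0.0199), and 10 of 11 arrays were below the naive mean. The early phase differed by -0.04 (limma adjusted p = 0.912) and the late phase by -0.20 (0.183). The middle minus the early phase was -0.28 ± 0.09 (SE, limma adjusted p = 0.0364), a call that was lost with neqc (-0.08, 0.051), with no filter (0.0533), with the mean muscle marker level of each array as a covariate (0.0529, chosen after seeing the data), with only the groups compared (0.0551) and without any 1 of 11 arrays. The middle-phase call was lost without naive replicate 3 (limma adjusted p = 0.0779) or naive replicate 6 (0.0514), and with neqc the difference was -0.09, still called. The F-test over the 12 times was not passed (limma adjusted p = 0.431), and no single time was called. Its measured neighbours Otud7a (-0.06, limma adjusted p = 0.597) and Klf13 (0.10, 0.403) were not called in the middle phase, and Peg12 and A26c2 were not tested.

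**Figure D2:**
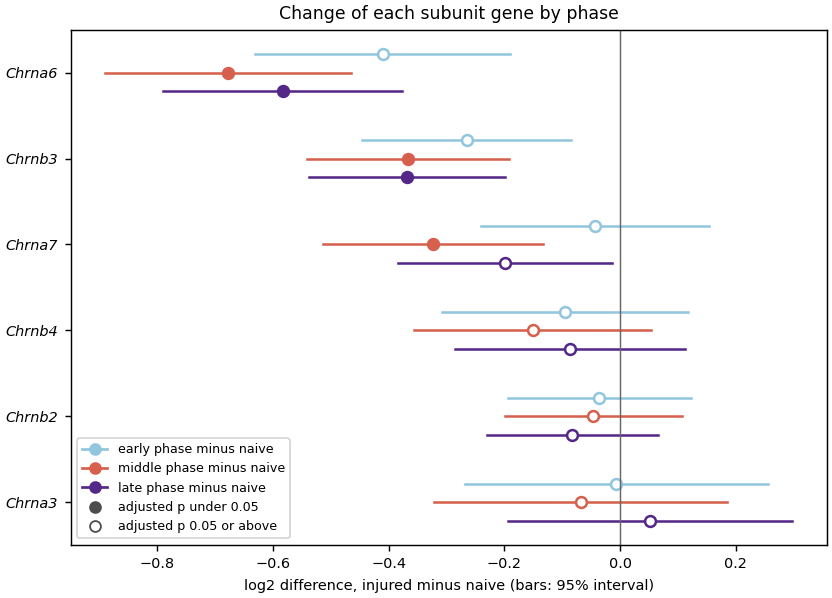
Fitted log2 difference from naive (x) of the 6 measured subunit genes (y) in the early, middle and late phase, with 95% intervals and filled points where the adjusted p was under 0.05. Chrna6 lies at -0.68 in the middle and -0.58 in the late phase, Chrnb3 at -0.37 in both, and Chrna7 at -0.32 in the middle phase, while the intervals of Chrnb4, Chrnb2 and Chrna3 all include 0.

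Chrna3, the alpha subunit of the ganglionic receptor, was well above background on 40 of 40 arrays and was not called in any phase. It ran between 7.58 and 8.47 in the middle phase (median 8.04), between 7.88 and 8.56 in the late phase (median 8.12) and between 7.89 and 8.31 in naive ganglia (median 8.12). The differences were -0.01 in the early, -0.07 in the middle (95% interval -0.32 to 0.19) and 0.05 in the late phase (-0.19 to 0.30), with limma adjusted p of 0.785-0.993. A change of the size of the middle-phase fall of Chrna6 (-0.68) lies outside these intervals. Because sympathetic neurons also carry the ganglionic receptor, their markers are given here. Of 3 measured, Npy rose by 4.27 in the middle and 5.39 in the late phase, Phox2a was called higher (limma adjusted p = 2.39e-05 and 0.00335) with 8 of 11 middle-phase, 3 of 13 late-phase and 0 of 7 naive arrays above the level, and Th was not called (-0.33, 0.064, and -0.26, 0.147). Npy is also known to be induced in injured sensory neurons. The part of such cells in the Chrna3 levels was not tested.

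Chrnb2, the common beta partner, was also above the level on 40 of 40 arrays and not called. Its brightest probe ran between 8.98 and 9.45 in the middle phase, between 8.91 and 9.48 in the late phase, and between 9.05 and 9.52 in naive ganglia. The differences were -0.05 in the middle (95% interval -0.20 to 0.11) and -0.08 in the late phase (-0.23 to 0.07). A second bright probe gave 0.03 and 0.10 with limma adjusted p of 0.923 and 0.759, so the probes disagree in sign around 0. The last probe was above the level on 4 of 40 arrays. Its neighbours Adar (0.06, limma adjusted p = 0.673) and Ube2q1 (-0.04, 0.873) were not called in the middle phase, and Kcnn3 and She were not tested.

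Chrnb4, the beta subunit of the ganglionic receptor, sat at background. It was above the detection level on 3 of 33 injured arrays and 1 of 7 naive arrays, so its small differences (-0.15 in the middle phase, limma adjusted p = 0.384, and -0.09 in the late phase, 0.706) say little about its expression. Chrna3, Chrnb4 and Chrna5 form a gene cluster in the annotation, and Chrna5, the other member of it, was not above the level on enough arrays to be tested. Psma4, a proteasome subunit gene, and Ube2q2, on either side of the cluster, were not called (middle-phase differences 0.03 and 0.18, limma adjusted p = 0.810 and 0.504), and Fbxo22 was not tested. The pair Chrna3 and Chrnb4 was therefore not compared.

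Gabra2 gave raw signals of 98.5-168.7 on injured arrays and 98.0-148.8 on naive arrays, and the highest of its normalized levels, 6.34, was below the detection level of 6.84. No fold is given for it, and it was not detectable on these arrays, which does not show that the gene is silent in the ganglion. The RefSeq neighbours Gabra4, Cox7b2 and Gnpda2 were not tested either, the last for lack of a probe. The other neighbour, Gabrg1, was measured.

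**Figure D3:**
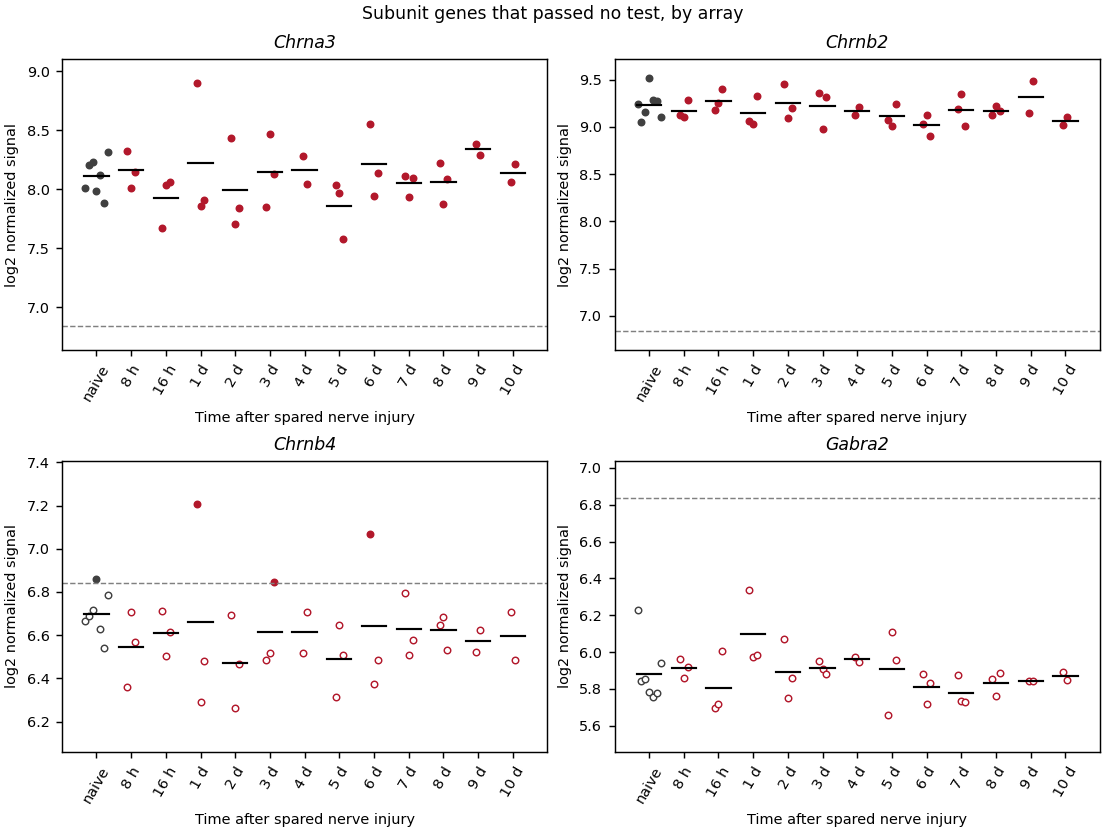
Log2 normalized signal (y) of Chrna3, Chrnb2, Chrnb4 and Gabra2 on every array by time after injury (x), with bars at group means, open points for arrays not above the detection level and a dashed line at that level. Chrna3 and Chrnb2 stay above the level on all 40 arrays, Chrnb4 crosses it on 4, and Gabra2 stays below it on all 40.

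Chrna6 was also compared within each array with 2 other alpha subunit genes, Chrna3 and Chrna7. Chrna6 minus Chrna3 averaged 0.62 ± 0.22 (SD, n = 11) in the middle and 0.60 ± 0.22 (SD, n = 13) in the late phase, against 1.23 ± 0.27 (SD, n = 7) in naive ganglia. The shift was -0.62 in the middle phase (exact permutation, adjusted p = 0.000189) and -0.63 in the late phase (exact permutation, adjusted p = 7.74e-05), with 11 of 11 and 13 of 13 arrays below the naive mean. Chrna6 minus Chrna7 shifted by -0.38 in the middle phase (exact permutation, adjusted p = 0.0058, 11 of 11 arrays below the naive mean) and by -0.39 in the late phase (exact permutation, adjusted p = 0.0089, 11 of 13 arrays). Chrna7 was above the detection level on 7 of 11 middle-phase, 10 of 13 late-phase and 6 of 7 naive arrays, so on the remaining arrays its level, and with it the gap to Chrna6, is only a bound. These are ratios within an array. Against Chrna3 they show unequal change and not that any one gene stood still. Against Chrna7 they do not settle unequal change, because part of its levels are bounds.

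**Figure D4:**
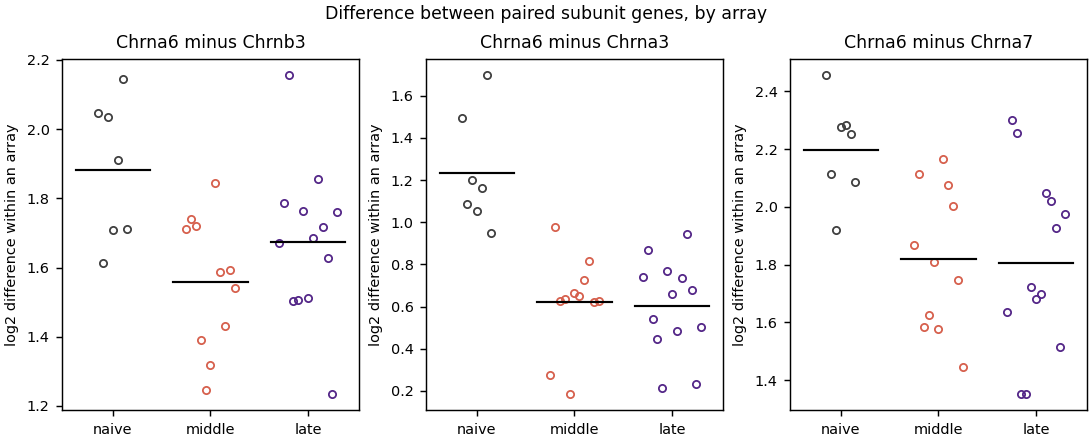
Within-array log2 difference (y) between Chrna6 and Chrnb3, Chrna3 or Chrna7 in naive, middle-phase and late-phase ganglia (x), 1 point per array with a bar at the mean. The middle-phase mean is below the naive mean in all 3 panels, by 0.32, 0.62 and 0.38.

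The remaining nicotinic subunits included those of the muscle receptor. Of 10 genes, 6 were measured. In the late phase 2 were called higher and 1 lower, and the F-test called 0 of 6. Chrnb1, the beta subunit of the muscle receptor, rose by 0.27 ± 0.07 (SE, limma adjusted p = 0.00884) in the middle phase and 0.25 ± 0.07 (SE, 0.0133) in the late phase, with means of 7.51 in both phases, against 7.25 in naive ganglia. Chrna1, its alpha subunit, was above the detection level on 4 of 11 middle-phase, 6 of 13 late-phase and 0 of 7 naive arrays, with limma adjusted p = 0.0223 and 0.0045, and no fold is given. The middle call of Chrna1 was lost without naive replicate 6 or the first array at 4 days (adjusted p up to 0.0923). With neqc the differences of Chrnb1 were 0.11 and 0.10, still called. The replicate block also left out naive replicates 4 to 7. With it the calls of Chrnb1 (limma adjusted p = 0.135 and 0.19) and Chrna1 (0.14 and 0.0728) were lost, with Chrnb1 differences of 0.27 and 0.25. Each of these calls was kept under 10 of 11 alternatives, among them a block by run of sample numbers on all 40 arrays. Of 11 skeletal muscle markers, measured with a wide spread, the median difference was 0.74 in the early, 0.17 in the middle and 0.66 in the late phase, and single ones such as Atp2a1 (1.22 ± 0.74, SE, late phase, limma adjusted p = 0.365) and Acta1 (1.10 ± 0.79, SE, 0.479) had higher means that did not pass. With the muscle covariate, computed without Pvalb and chosen after seeing the data, Chrnb1 stayed called (0.26, limma adjusted p = 0.00467, and 0.21, 0.0294), as did Chrna1 (0.0235 and 0.00742). None of the 11 markers was called higher in any phase, which at this spread does not show equal muscle levels. Pvalb, which large sensory neurons also express, was called lower in the late phase. The part of muscle tissue in the Chrnb1 and Chrna1 levels was not tested. Chrna10 was called lower in the late phase (limma adjusted p = 0.0251), where 0 of 13 arrays were above the level, against 4 of 7 in naive ganglia, and the call was lost without naive replicate 2 or 3, the first array at 9 days or the second at 10 days (adjusted p up to 0.0728). Chrna4, Chrna9 and Chrne were not called.

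Of the other GABA-A subunits, 15 of 18 had a probe and 5 were measured: Gabra3, Gabrb1, Gabrb2, Gabrg1 and Gabrd. Gabrg1, a gamma subunit that glia express as well as neurons, rose. It averaged 7.74 in the middle and 7.86 in the late phase, against 7.29 in naive ganglia, a difference of 0.45 ± 0.09 (SE, limma adjusted p = 0.000443) and 0.55 ± 0.09 (SE, limma adjusted p = 1.44e-05). With neqc these were 0.19 and 0.24, still called. The early difference was 0.04 (limma adjusted p = 0.922). The other 4 were not called. Among 14 measured genes that traffic, cluster or modify GABA-A receptors, such as the scaffold gene Gphn and Gabarap, 0 were called by limma, and the same held for 9 measured chloride transport genes. The median middle-phase differences of these lists were -0.04 and 0.02.

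Partners of nicotinic receptors changed in part. Of 9 measured genes, 2 were called lower in the middle phase, and 2 lower and 1 higher in the late phase. Tmem35a, the chaperone NACHO that assembles alpha7 and other neuronal nicotinic receptors, fell by 0.56 ± 0.14 (SE, limma adjusted p = 0.00663) in the middle phase and by 0.44 ± 0.14 (SE, 0.0321) in the late phase. The late call was lost without naive replicate 1, 3 or 7, the third array at 6 days, or the second at 7, 9 or 10 days (adjusted p up to 0.107). Ly6h, a membrane-anchored protein that limits alpha7 receptors at the surface, fell by 0.36 ± 0.10 (SE, limma adjusted p = 0.0105) in the middle phase. In the late phase its difference was -0.27 and just missed the threshold (limma adjusted p = 0.0605). Lypd1, of the same Ly6 family, was lower in the early phase (-0.35, limma adjusted p = 0.0459) and in the late phase (-0.34, 0.00643). The early call was kept without 16 of 40 single arrays and under 7 of 11 alternatives. The middle-phase difference of Lypd1 was -0.26 and just missed the threshold (limma adjusted p = 0.0537). Ly6e, an interferon-inducible gene of that family, rose by 0.52 ± 0.08 (SE, limma adjusted p = 9.01e-06) in the late phase. In the middle phase its difference was 0.24 (limma adjusted p = 0.0517). Ric3, a nicotinic chaperone, and Lynx1, a brake on nicotinic receptors, were not called.

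Of 3 measured genes of acetylcholine metabolism, Ache, which encodes acetylcholinesterase, was the one called. It fell by 0.28 ± 0.07 (SE, limma adjusted p = 0.00457) in the middle phase and by 0.42 ± 0.07 (SE, 1.65e-05) in the late phase, or by 0.18 and 0.26 with neqc. Of 7 measured genes of GABA metabolism and uptake, the transporter gene Slc6a13 rose by 0.46 ± 0.14 (SE, limma adjusted p = 0.0312) in the late phase, a call kept without 32 of 40 single arrays and lost with the muscle covariate (0.0632). Aldh5a1, which degrades GABA's product succinic semialdehyde, was lower in the late phase by its brightest probe (-0.30, limma adjusted p = 0.0231) but not by the mean of its probes (-0.07, 0.619). Gad1, which makes GABA, was called higher in the middle phase (limma adjusted p = 0.0343) at background, with 2 of 11 middle-phase and 0 of 7 naive arrays above the level. That call was lost with neqc (0.0555), with cyclic loess (0.0533) and with the replicate block (0.256), and was kept without 30 of 40 single arrays. Among the metabotropic receptors of both transmitters, Chrm2 was called lower in the middle (limma adjusted p = 0.026) and late phase (0.0288). It was above the level on 0 of 11 middle-phase, 1 of 13 late-phase and 3 of 7 naive arrays. These calls were kept without 37 and 36 of 40 single arrays (limma adjusted p up to 0.0922 and 0.127). Chrm2 did not pass the F-test (limma adjusted p = 0.411).

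Serotonin and glycine receptor genes of the same Cys-loop family were listed too. The 3 measured of 7, Htr3a, Htr3b and Glrb, were called lower in the middle and late phases and by the F-test. Htr3a, the principal 5-HT3 receptor subunit, fell by 0.81 ± 0.15 (SE, limma adjusted p = 0.000257) in the middle phase and by 0.97 ± 0.15 (SE, 9.07e-06) in the late phase. Htr3b, its partner, fell by 0.67 ± 0.10 (SE, limma adjusted p = 6.07e-06) and by 0.74 ± 0.10 (SE, 5.36e-07). Glrb, the glycine receptor beta subunit, fell by 0.56 ± 0.10 (SE, limma adjusted p = 0.000204) and by 0.47 ± 0.10 (SE, 0.00122) by its brightest probe, and by 0.24 in the middle phase by the mean of its probes (limma adjusted p = 0.0657). Of 6 measured P2X receptor genes, ATP-gated channels of another family, limma called 0.

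**Figure D5:**
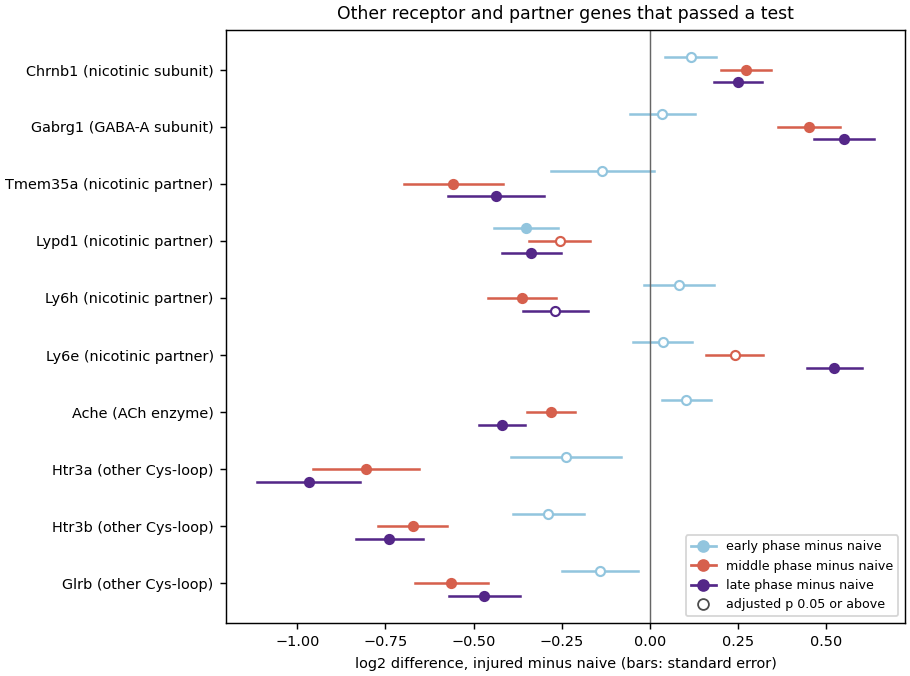
Log2 difference from naive (x, bars are standard errors) in the early, middle and late phase for other Cys-loop subunit genes, nicotinic partner genes and Ache (y) that were called in a test and were above the detection level on at least 1 array of each phase and of the naive group. Htr3a, Htr3b, Glrb, Tmem35a and Ache lie left of 0 in the middle and late phase, and Gabrg1, Chrnb1 and Ly6e lie right of it.

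Genes with the pattern most like that of Chrna6 were found among the 793 other genes that passed the F-test, by the root mean square difference of the 13 centred group means. The 5 nearest were Abcd2 (0.0873), Rassf4 (0.103), Fam126b (0.110), Dgkh (0.111) and Ntng1 (0.116), beside a median of 0.343 over all 793. Their middle-phase differences ran between -0.55 for Dgkh and -0.43 for Ntng1, smaller than the -0.68 of Chrna6. Nearest to Chrnb3 were Knop1 (0.0751), Ccpg1 (0.092), Rpa1 (0.092), Arhgef3 (0.0971) and Ralyl (0.0981), beside a median of 0.280. Their middle-phase differences ran between -0.30 and -0.26.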

How the data were processed

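RNA of 40 ganglion samples was measured on 1-colour Illumina bead arrays. The deposited file gives a non-normalized signal intensity for 25697 probes and a detection p-value for each, per the file headers. The authors' deposited log2 values equal the log2 of the quantile-normalized intensity and were used as an alternative. On 37 of 40 arrays the deposited detection p-value column did not follow the signal of the array it is named for, so the detection level (6.84 log2, 6.81-6.87) was taken from the other 3. The second 10-day array is labelled 240 h, but its detection column is named for 216 h, the 9-day time. Its position in its run of sample numbers (25) is also that of the 9-day arrays. It was kept as labelled.

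Signals were corrected with normexp (offset 50), quantile-normalized and put on the log2 scale (limma 3.58.1, R 4.3.3). The 15462 probes that exceeded this level on 3 arrays or more were kept, and a gene was its kept probe with the highest mean (10519 genes). limma was fitted with 1 mean per group over all 40 arrays, with a trended prior, and p-values were adjusted by Benjamini-Hochberg over all genes, with 0.05 as the threshold. Phases weight their times equally. Gene pairs were compared by exact permutation. The fit was tested on simulated data. Precision is limited by 2 or 3 arrays at each time. Gene names come from the platform table, with symbols updated through RefSeq for 23962 of 23978 probes. Promoter windows were searched with Python 3.11.15. Alternatives were other background corrections, normalizations, filters, probe rules, sample sets, variance models, replicate blocks and each array left out. The neqc alternative used the deposited detection p-values of all 40 arrays, including the 37 that did not follow the signal.

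The members, gene lists and tests were chosen with earlier results of these data known. Named are all members and probes, listed genes past the threshold (8 per list at most), 2 annotated neighbours on each side and the 5 most similar patterns. Other lists held nicotinic partners, GABA-A partners, acetylcholine and GABA metabolism, metabotropic receptors, other Cys-loop and P2X receptors, chloride transport and cell type markers.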

Additional observations from a re-analysis of the deposited data

Results flagged for a closer look

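Chrna7 was picked out because its change from naive differed between phases by a test of that difference: the middle minus the early phase was -0.28 ± 0.09 (SE, limma adjusted p = 0.0364), while the early phase itself lay at -0.04 from naive. The call was lost without any 1 of 11 arrays (replicates 1 and 2 at 8 h, 16 h and 1 day, replicate 2 at 2 and 3 days, replicates 1 and 2 at 4 days and replicate 3 at 5 days), with adjusted p up to 0.102 (without the second array at 16 h). It was also lost with neqc (-0.08, adjusted p = 0.051), with no filter (0.0533), with the muscle covariate (0.0529, an alternative chosen after seeing the data) and in a fit of the compared groups alone (0.0551). Levels of 4 of 11 middle-phase and 1 of 9 early-phase arrays were not above the detection level.

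Naive replicate 1 stood apart for Gabra2, at 6.23, with the other 6 naive arrays between 5.75 and 5.94. The gap to the next array was 0.609 of the group's range, above Dixon's critical value for 7 samples. All 7 values were below the detection level, and chance gives such a gap in about 1 in 20 groups. None of the other 11 member probes had a naive array this far from the rest.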

How the results depend on the processing

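Chrna6 and Chrnb3 kept their direction and their calls in the middle and late phase under all 12 alternatives tried for each and without any 1 of the 40 arrays. Over the 12 alternatives the differences of Chrna6 ran between -0.75 and -0.52 in the middle phase and between -0.67 and -0.45 in the late phase, and those of Chrnb3 between -0.48 and -0.13 in both. The early difference of Chrna6 passed under 5 of 12, among them neqc (adjusted p = 0.0401) and robust variances (0.0119), and without naive replicate 4, the second array at 16 h, the first at 1, 3, 5 or 6 days, or the third at 5 days (lowest 0.0192). Chrnb3 lost its F-test call with no filter (0.0519) and with the replicate block (0.142). Chrna7 lost its middle minus early call with neqc (-0.08, 0.051), no filter (0.0533), the muscle covariate (0.0529) and only the groups compared (0.0551), and gained an F-test call with robust variances (0.0288). Member calls at single times numbered 8 to 12 over the alternatives and 9 to 13 with 1 array left out.

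Counts over all genes moved more. Robust variances with array weights gave 4554 for the F-test, 212 for the early phase, 2130 for the middle phase, 2370 for middle minus early and 389 for late minus middle. The skeletal muscle mean as a covariate, an alternative chosen after seeing the data, gave 215 for the early phase. Only the groups compared gave 65 for the early phase and 39 for late minus middle, and a block by run of sample numbers gave 44 for late minus middle. With 1 array left out, counts were 689-1113 for the F-test, 76-162 for the early phase, 862-1252 for the middle phase, 935-1226 for the late phase, 629-1405 for middle minus early and 30-211 for late minus middle. The gap of Chrna6 and Chrnb3 in the late phase was -0.3236 with neqc and -0.2542 in the authors' log2 values, and -0.251 to -0.1624 with 1 array left out. The cause of these shifts was not tested.

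Same-numbered arrays of different groups did not deviate together (lowest correlation -0.584, median -0.033). Arrays of the same run of sample numbers gave a median of -0.034. With 3 arrays in a group, this check cannot exclude that arrays were paired. With the replicate block and naive replicates 4 to 7 left out, 503 genes passed the F-test, 39 the early, 647 the middle and 556 the late phase, and Chrnb1 lost its calls (0.135 and 0.19), as did Chrna1 (0.14 and 0.0728), Lypd1 in the early phase (0.25), Ly6h (0.145), Gad1 (0.256), Chrm2 (0.224 and 0.291), Chrna10 (0.138), Slc6a13 (0.146) and Aldh5a1 (0.087).

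Differences near 0 changed sign. Chrna3 in the early phase was 0.0077 with neqc and 0.0113 with cyclic loess, in the late phase -8e-04 with the replicate block, and for middle minus early 0.0284 with robust variances. Chrna7 in the early phase was 0.0107 with robust variances. Chrnb2 was 0.0277 (mean of probes), 0.0469 (replicate block) and 0.0087 (muscle covariate) in the early phase, 0.0016 and 0.0406 (mean of probes, replicate block) in the middle phase, 0.0153 and 0.0069 (the same pair) in the late phase, and 0.0137 for late minus middle (mean of probes). Chrnb3 late minus middle was 0.0019 with a normexp offset of 16. With 1 array left out, signs also changed for Chrna3 in the early phase (-0.1196 to 0.0551) and middle minus early (-0.1229 to 0.0517), Chrna7 in the early phase (-0.1066 to 0.0185), Chrnb2 in the early (-0.0672 to 0.0116) and middle phase (-0.0773 to 0.0011) and middle minus early (-0.0359 to 0.0208), Chrnb4 middle minus early (-0.118 to 0.0351) and Chrnb3 late minus middle (-0.0482 to 0.0464).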

Other observations

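A pair of arrays carried the highest ganglionic receptor signals of the series, a pattern chosen after the values were seen. The first array at 1 day and the first at 6 days ranked first and second of 40 for Chrna3 (8.90 and 8.56) and for Chrnb4 (7.21 and 7.07). The 1-day array was also first for Gabra2 (6.34, below the detection level) and ranked 3 of 40 for Chrnb3 (7.48). On the same arrays Chrna6 was 9.06 and 9.10, each the highest value of its time. The median of all 33 injured arrays was 8.07 for Chrna3 and 6.53 for Chrnb4.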
